A study of Mus musculus with 4 samples.

Results

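The subunits of the mitochondrial respiratory chain and ATP synthase that are encoded in the nucleus were followed here on arrays of mouse skeletal muscle. Members were chosen by a rule on the name, as probe sets with a single gene symbol of a given form. The symbol begins with Nduf, Sdh (a to d), Uqcr, Cox4 to Cox8 or Atp5, or is Cyc1 or Cycs. Earlier results of these data were known when the members were chosen. The rule gave 101 of the 12422 probe sets outside the array's controls. These stand for 73 of the 8251 genes that have a probe set with a single symbol. Complex I held 42 probe sets of 31 genes, complex II 4 of 4, complex III 9 of 8, complex IV 23 of 15 and complex V 22 of 14, and cytochrome c added 1 probe set of 1 gene. A filter on dim signals left 93 member probe sets, and each of the 73 genes kept at least 1. The symbol rule also took in Ndufaf1 and Ndufaf4, which are assembly factors of complex I, and Cox7a2l, which in the mouse helps to join complexes III and IV. Another 10 probe sets carry several symbols of which at least 1 has such a name, and these were not analysed here.

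Total RNA of murine skeletal muscle was hybridised to 4 arrays of a series titled for the neuromuscular junction. The sample names mark 2 arrays as J (labels 1a and 1c) and 2 as NJ (labels 1a and 1d), all at 0 h and all with the tag Ctr. The labels do not spell out J and NJ, and they give no strain, age, sex or treatment, nor whether arrays of a group came from separate animals, so every p-value here measures only the spread between these arrays, which may be technical. The comparison of J with NJ is the only one the names allow.

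In oxidative phosphorylation, complexes I and II pass electrons from NADH and succinate to ubiquinone, complex III passes them on to cytochrome c, and complex IV reduces oxygen, while the proton gradient built by complexes I, III and IV drives ATP synthesis in complex V. Most subunits are nuclear genes, and a smaller set, not covered by the rule, is encoded by mitochondrial DNA. Oxidative muscle fibres hold more mitochondria than fast glycolytic fibres, and several complex IV subunits exist as a heart-and-muscle isoform and an isoform of other tissues.

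Promoters of these genes are known for sites of the nuclear respiratory factor NRF1, of the ETS factor GABP, of YY1 and of Sp1. Of the 73 genes, 59 matched a gene start in RefSeq (GRCm38.p6), and the 250 bases before the start were searched on both strands. The letters GCGCA and GCGC with 1 base of any kind between them (NRF1) occurred before 9 of the 59 genes (15.3%), against 4.21% of the other 26966 genes, and CCGGAAG (GABP) before 12 (20.3%), against 7.8%. AANATGGCG (YY1) occurred before 3 (5.08%), against 1.28%, and GGGCGG (Sp1) before 25 (42.4%), against 35.3%. TCAAGGTCA, the extended site of the oestrogen-related receptors, occurred before 0 of the members, against 0.423% of the other genes. Member windows had a median GC content of 57.6%, against 52.4% for the other genes, and all of these searched motifs but those of YY1 and the oestrogen-related receptors are rich in G and C. These matches are a description of letters and not of binding. The promoters of 3 complex II genes are shown because all 4 complex II genes had a negative difference, and those of Cox7a1 and Cox7a2 because these are the muscle isoform and the isoform of other tissues of the same subunit. They are chr13:74350241-74350490 (minus strand) for Sdha, chr4:140961021-140961270 (plus) for Sdhb, chr9:50603850-50604099 (minus) for Sdhd, chr7:30183921-30184170 (plus) for Cox7a1 and chr9:79759854-79760103 (minus) for Cox7a2, each written 5′ to 3′ toward its gene with the motif matches in capitals.
Sdha: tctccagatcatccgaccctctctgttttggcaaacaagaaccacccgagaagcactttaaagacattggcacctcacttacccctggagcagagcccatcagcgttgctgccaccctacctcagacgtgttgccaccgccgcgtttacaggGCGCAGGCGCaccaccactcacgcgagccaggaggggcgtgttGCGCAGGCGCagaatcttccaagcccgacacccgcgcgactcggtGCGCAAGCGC
Sdhb: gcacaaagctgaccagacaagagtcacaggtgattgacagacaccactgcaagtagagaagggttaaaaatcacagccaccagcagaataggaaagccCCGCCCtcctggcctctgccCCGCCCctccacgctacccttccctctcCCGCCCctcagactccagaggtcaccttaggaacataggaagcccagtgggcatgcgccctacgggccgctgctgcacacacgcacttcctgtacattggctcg
Sdhd: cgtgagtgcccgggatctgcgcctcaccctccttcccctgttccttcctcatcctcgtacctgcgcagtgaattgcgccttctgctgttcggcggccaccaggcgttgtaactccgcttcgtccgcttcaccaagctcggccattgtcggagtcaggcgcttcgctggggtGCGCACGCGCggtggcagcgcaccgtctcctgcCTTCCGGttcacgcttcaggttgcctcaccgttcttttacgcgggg
Cox7a1: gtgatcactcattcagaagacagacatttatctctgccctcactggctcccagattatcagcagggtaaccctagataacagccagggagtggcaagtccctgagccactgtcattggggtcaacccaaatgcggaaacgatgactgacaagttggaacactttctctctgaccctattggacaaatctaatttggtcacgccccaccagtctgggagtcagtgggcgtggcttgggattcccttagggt
Cox7a2: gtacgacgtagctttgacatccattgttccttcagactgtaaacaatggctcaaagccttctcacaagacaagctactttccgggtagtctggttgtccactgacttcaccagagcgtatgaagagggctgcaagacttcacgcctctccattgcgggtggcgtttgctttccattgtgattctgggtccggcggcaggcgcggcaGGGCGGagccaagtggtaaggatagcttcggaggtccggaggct
The Sdha window holds the NRF1 letters 3 times and the Sdhd window holds them once beside the GABP letters on the other strand. The Sdhb window holds the Sp1 letters 3 times, all on the other strand, the Cox7a2 window once, and the Cox7a1 window has 0 matches.

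The deposited signals had 1 scale per array. Median signals were 376 on J 1a and 300.4 on J 1c, against 366 on NJ 1a and 280.2 on NJ 1d. J 1c stood apart at the bright end, with a highest signal of 41086, against 231943 on J 1a, 184184 on NJ 1a and 125534 on NJ 1d. The ratio of the 3′ to the 5′ probe set of a control gene is a sign of RNA or target length. For Gapdh it was 7.61 on J 1a and 1.43 on J 1c, against 8.34 on NJ 1a and 7.48 on NJ 1d. For Actb it was 5.46 and 4.61, against 4.75 and 8.46. On J 1c the 3′ signal of Gapdh (22552) was below its middle signal (28115), unlike on the other arrays. How much of the low Gapdh ratio of J 1c follows its bright end was not tested. The CreX spike, which is added to the sample and is not muscle RNA, read 238288 on J 1a and 33923 on J 1c, against 125474 on NJ 1a and 96944 on NJ 1d. Most respiratory chain genes lie at this bright end, since 58 of the 73 were above the 90th percentile of mean signal and 35 above the 98th. Values were therefore quantile normalised as log2(signal + 32), all differences below are J minus NJ on that scale with their standard error from limma (2 arrays per group), and results are also given without J 1c. The deposited columns of J 1a and NJ 1a carry full digits and those of J 1c and NJ 1d are rounded to 1 decimal, so J minus NJ was also taken within each number format.

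No respiratory chain probe set passed an adjusted p of 0.05 in limma with Benjamini-Hochberg adjustment over all 9316 tested probe sets. The same held for the rest of the array, where 0% of probe sets were called higher and 0% lower. At an unadjusted p under 0.05 limma called 198 probe sets (2.13%), and 0 of the 73 genes at their brightest probe set, where the smallest value was 0.10 for Cox7a2l. With number format as a term limma called 4 probe sets higher (0.0429%) and 4 lower (0.0429%), of which 0 were members. Values of the complexes below are therefore descriptions of 4 arrays.

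At the brightest probe set of each gene, 50 of the 73 genes had a negative difference and 23 a positive one, with a median of -0.14. Over all 6773 tested genes 3467 (51.2%) were negative, with a median of -0.01. Both J arrays were below both NJ arrays for 12 member genes, or 16.4%, against 13.2% of all tested genes, and above both for 6, or 8.22%, against 13.4%. The difference exceeded the gaps between the arrays of both groups for 9 genes (12.3%), a share below the 15.2% of all tested genes. The median size of the difference was 0.24, while the arrays of a group lay 0.47 (J) and 0.45 (NJ) apart in the median member. For the median member the arrays of a group thus lay further apart than the group means. Without NJ 1d the median over the members was -0.05, and without NJ 1a it was -0.25. Fewer mitochondria-rich cells and less of these RNAs per cell cannot be told apart in bulk RNA.

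**Figure D1:**
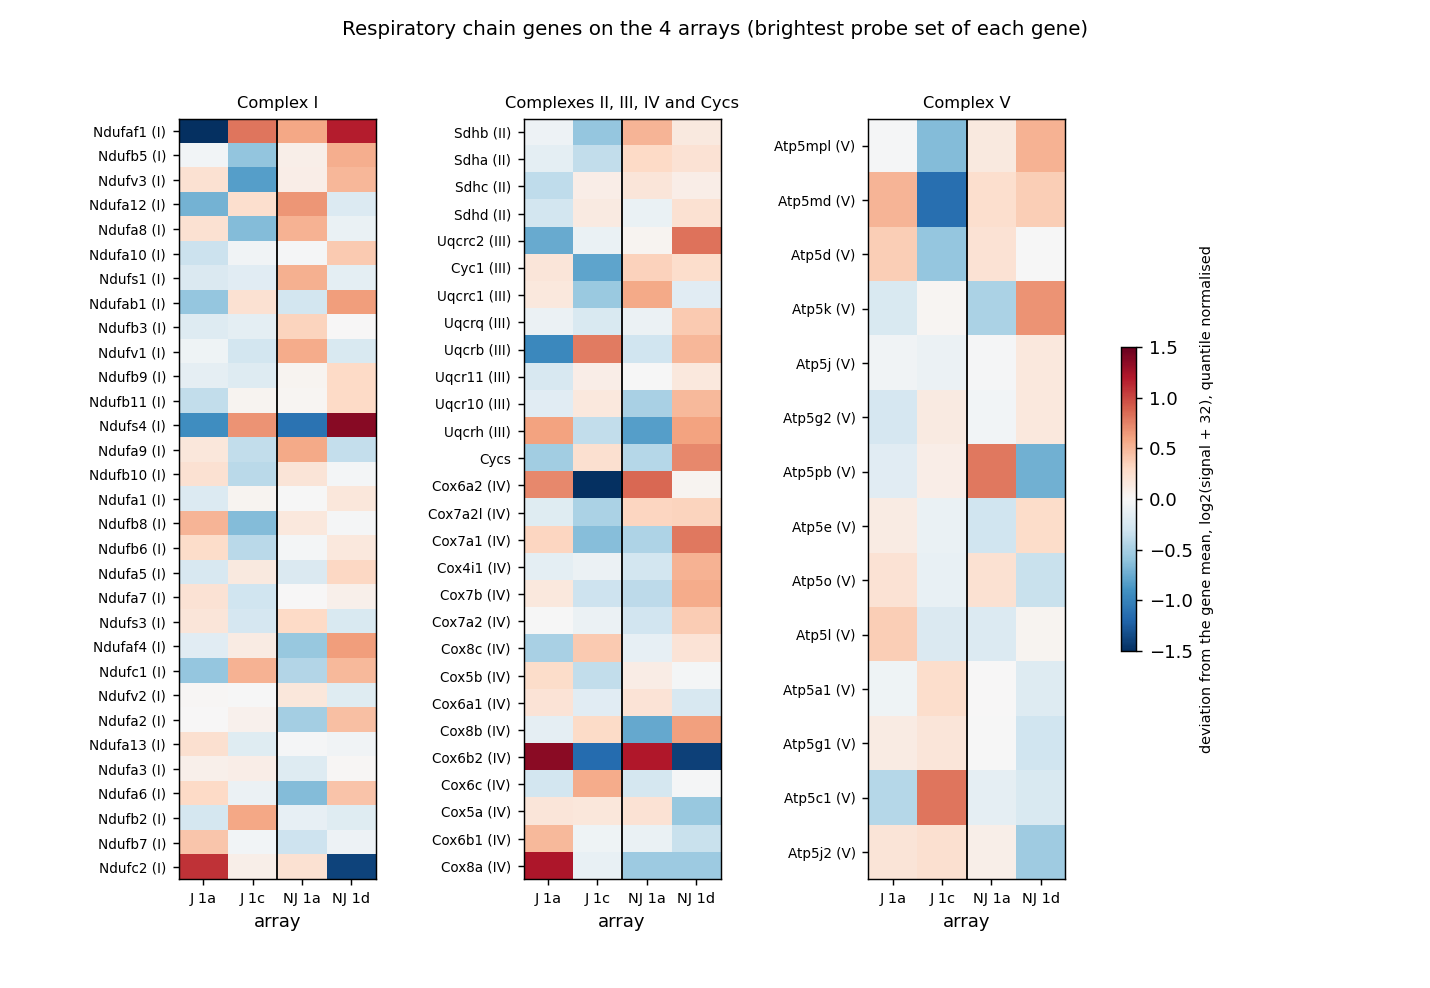
Deviation of each gene's brightest probe set from its mean over the 4 arrays, in log2(signal + 32) after quantile normalisation, with J arrays left of the black line and NJ arrays right of it, and genes ordered within each complex by J minus NJ. Blue is below and red above the gene's mean, and deviations beyond 1.5 take the end colour. Succinate dehydrogenase genes Sdha and Sdhb are blue in both J arrays and red in both NJ arrays, while most other genes differ as much within a group as between groups.

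The number formats did not give the same picture. Between the full-digit arrays the median member difference was -0.03, and between the arrays rounded to 1 decimal it was -0.32. In both formats J was lower for 27 genes (background 24.7%) and higher for 8 (background 24.9%). The formats gave opposite signs or a difference of 0 for 38 of 73 genes, against 3415 of all 6773 tested genes, a like share. Leaving out J 1c left 40 of 73 genes negative and a median of -0.13, against 3310 of 6758 negative among all tested genes. The share of negative differences was 68.5% after quantile normalisation, 69.9% after cyclic loess, 80.8% on the deposited scale and 84.9% after centring each array on its median. The median of all tested probe sets was -0.01, -0.01, 0.02 and -0.04 under these scalings.

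**Figure D2:**
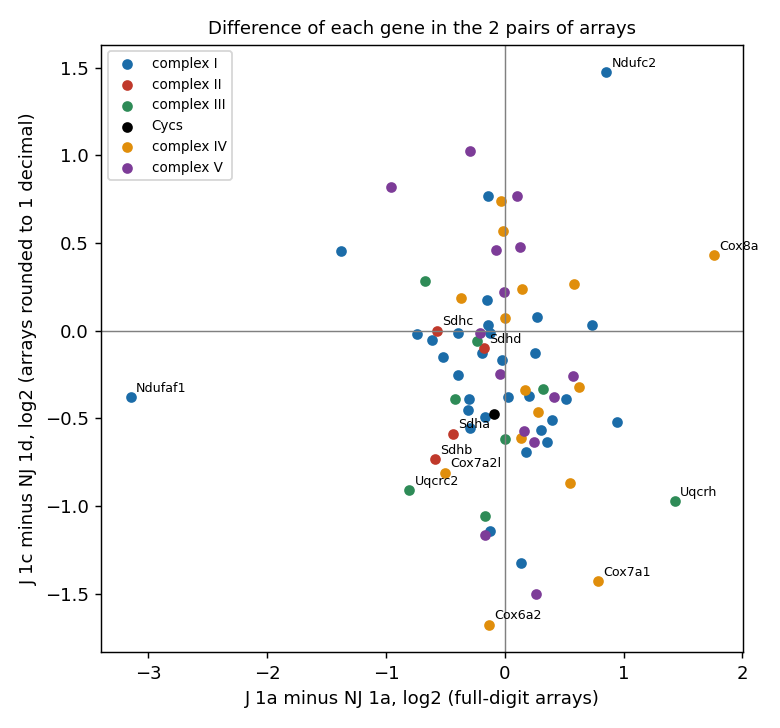
J minus NJ of each member gene between the full-digit arrays (x axis) and between the arrays rounded to 1 decimal (y axis), in log2(signal + 32) after quantile normalisation, coloured by complex. Points in the lower left are lower in J in both formats (27 genes), and the many points in the upper left and lower right are genes for which the formats disagree in sign.

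Complex II, succinate dehydrogenase, had a median difference of -0.40, with 4 of 4 genes negative. This was the most negative median of the 5 complexes after quantile normalisation of all 4 arrays, and the rank changed in other settings. On the deposited scale complex III stood at -0.63 and complex II at -0.52. Without NJ 1a complex III stood at -0.49, complex IV at -0.42 and complex II at -0.38. Between the arrays rounded to 1 decimal complex III stood at -0.50 and complex II at -0.34. Sdha, the flavoprotein that oxidises succinate, had signals of 2391 on J 1a and 2257 on J 1c, against 3333 on NJ 1a and 3379 on NJ 1d. Sdhb, the iron-sulphur subunit, had 16910 and 10551 on the J arrays, against 25380 and 21361 on the NJ arrays. For both genes the J arrays were the lower pair and the groups did not overlap. After normalisation this held for 2 of 4 genes, against 13.2% of all tested genes.

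The differences were -0.51 ± 0.37 for Sdha and -0.66 ± 0.40 for Sdhb. Within the number formats they were -0.44 (full digits) and -0.59 (1 decimal) for Sdha, and -0.59 and -0.73 for Sdhb. Leaving out each array in turn gave -0.64 to -0.41 for Sdha and -0.87 to -0.45 for Sdhb. The Sdhb probe set has a name ending that marks probes shared between transcripts, so its signal may hold more than Sdhb.

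After quantile normalisation of all arrays the membrane anchors had smaller differences than Sdha and Sdhb. On the deposited scale Sdhc and Sdha were level, at -0.525 each. Between the full-digit arrays Sdhc (-0.57) was more negative than Sdha (-0.44). Sdhc had signals of 9264 and 12250 on the J arrays, against 14942 and 15759 on the NJ arrays, with no overlap as deposited. After normalisation J 1c and NJ 1d were level (difference 0.00 between them), and the fitted difference was -0.29 ± 0.38. Sdhd had 4492 and 6521 on the J arrays, against 5146 and 7663 on the NJ arrays, and -0.14 ± 0.37. The groups overlapped for Sdhd, and its difference was 0.07 in the most positive fit with an array left out and -0.34 in the most negative. Without J 1c the median of complex II was -0.43.

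**Figure D3:**
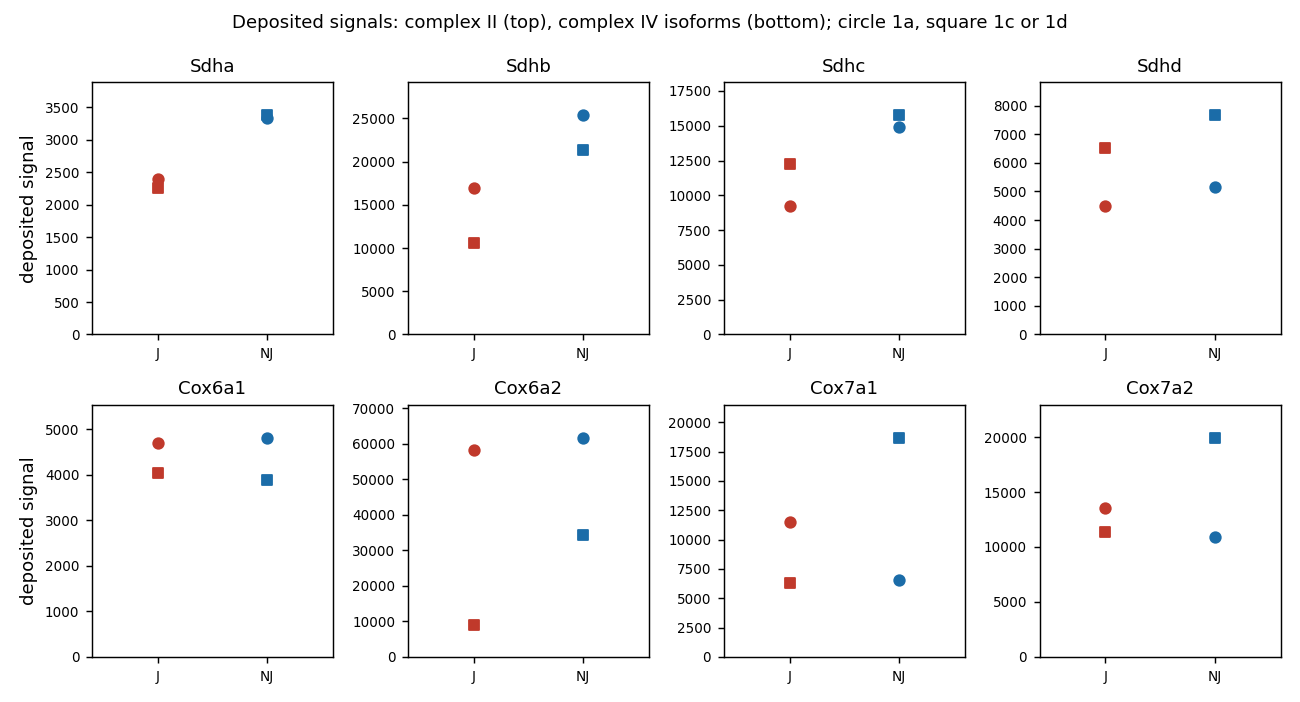
Deposited signal (y axis, linear, from 0) of the complex II genes (top) and of isoform pairs of complex IV (bottom) on each J array (red) and each NJ array (blue), with circles for label 1a and squares for 1c or 1d. Both J points lie below both NJ points for Sdha, Sdhb and Sdhc, while the groups overlap for Sdhd, Cox6a1, Cox6a2, Cox7a1 and Cox7a2.

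Complex III had 7 of 8 genes negative and a median of -0.25, and after normalisation both J arrays were below both NJ arrays for 2 of them, Uqcrc2 and Cyc1, or 2 of 8, against 13.2% of all tested genes. The median was -0.07 without NJ 1d and -0.49 without NJ 1a. Uqcrc2, a core protein of the complex, had signals of 18207 and 19287 on the J arrays, against 34672 and 61680 on the NJ arrays. Uqcrc1, the other core protein, had 19315 and 10441 on the J arrays, against 25808 and 16589 on the NJ arrays. Uqcrc2 did not overlap between groups, with a difference of -0.86 ± 0.47 and -1.37 to -0.46 with an array left out, whereas Uqcrc1 overlapped, since J 1a was above NJ 1d, with -0.40 ± 0.44. The name ending of the Uqcrc2 probe set marks probes that may match a family of related transcripts.

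Cyc1, the cytochrome c1 subunit, had signals of 53132 on J 1a and 16802 on J 1c, against 55885 on NJ 1a and 52465 on NJ 1d. J 1c was the low array, and the difference of -0.61 ± 0.49 split into -0.16 between the full-digit arrays and -1.06 between the others. A dimmer Cyc1 probe set gave the opposite sign, 0.15 ± 0.41, with 3103 and 5591 on the J arrays, against 3055 and 4966 on the NJ arrays. The 2 probe sets of Cyc1 thus do not give 1 direction.

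Of the smaller complex III subunits, Uqcrh, the hinge protein near cytochrome c1, was the only one with a positive difference, 0.23 ± 0.53. Its signals were 10708 and 5916 on the J arrays, against 4001 and 12703 on the NJ arrays, so the groups interleave and the number formats gave 1.43 and -0.97. Uqcrq, Uqcrb, Uqcr11 and Uqcr10 had differences of -0.31, -0.19, -0.14 and -0.00. Cycs, the soluble cytochrome c that carries electrons from complex III to complex IV, had 3425 and 6348 on the J arrays, against 3721 and 9743 on the NJ arrays, and -0.28 ± 0.47. In Cycs the arrays paired by number format and not by group, with J 1c and NJ 1d the brighter ones, and fits that left out J 1a or NJ 1d turned its difference to 0.11 or 0.28.

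Complex I had 23 of 31 genes negative, with a median of -0.16 (-0.13 between the full-digit arrays and -0.25 between the others). Without J 1a the median was -0.10. Without J 1c it was -0.14, and 17 of 31 genes were negative (54.8%, against 49.0% of all tested genes). Between the full-digit arrays 18 of 31 were negative (58.1%, against 50.4%). After normalisation both J arrays were below both NJ arrays for 5 genes (16.1%, against 13.2% of all tested genes) and above for 2 (6.45%, against 13.4%). Lower in both J arrays were Ndufs1, the large iron-sulphur subunit of the electron-input arm, and the accessory subunits Ndufa10, Ndufb3, Ndufb5 and Ndufb9. Higher in both were the accessory subunits Ndufb7 (0.38 ± 0.39) and Ndufa3 (0.18 ± 0.41), though Ndufa3 turned to -0.18 on the deposited scale. Ndufb7 had 0.73 between the full-digit arrays and 0.03 between the others. As deposited the groups overlapped for Ndufa10, Ndufb5, Ndufb7 and Ndufa3.

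Ndufs1 had signals of 6242 and 7100 on the J arrays, against 11390 and 8011 on the NJ arrays, and a difference of -0.38 ± 0.38. Ndufb5, the member with the highest mean, had 109504 and 24959 on the J arrays, against 103918 and 111076 on the NJ arrays, and -0.63 ± 0.53. The deposited Ndufb5 signals overlapped, since J 1a was above NJ 1a, and J 1c alone was far below. The Ndufb5 probe set has the same name ending as that of Uqcrc2, so its signal may hold related transcripts. The brightest probe sets of Ndufa3, Ndufb2, Cox6a1, Cox6c, Atp5d, Atp5g2 and Atp5md, among others, share this ending. Ndufv1, the subunit that binds NADH and FMN, was at -0.33 ± 0.41, and Ndufv2, its iron-sulphur partner, at 0.01 ± 0.37, or -0.17 on the deposited scale.

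The 3 complex I genes with the smallest unadjusted p were Ndufaf1, Ndufc2 and Ndufv3, and in each of them the number formats or the arrays of a group differed widely. Ndufv3, an accessory subunit of the NADH-binding module, had 2008 and 984 on the J arrays, against 1831 and 2570 on the NJ arrays, and -0.60 ± 0.48, with 0.14 between the full-digit arrays and -1.33 between the others. Ndufc2, a membrane-arm accessory subunit, had 619 and 245 on the J arrays, against 337 and 58.7 on the NJ arrays, and 1.16 ± 0.87. In each group of Ndufc2 the full-digit array was far above the other, and the groups overlapped.

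Ndufaf1, the assembly factor, had the largest size of difference among the members, -1.76 ± 1.0. It had 82.9 on J 1a and 991 on J 1c, against 865 on NJ 1a and 1248 on NJ 1d, so J 1a was low and J 1c lay between the NJ arrays. A dimmer Ndufaf1 probe set had 80.9 and 183 on the J arrays, against 474 and 507 on the NJ arrays, with no overlap and -1.80 ± 0.82. Ndufaf4 was at -0.06 ± 0.56, and without both assembly factors 21 of 29 complex I genes were negative, with the same median of -0.16.

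Complex IV had 8 negative and 7 positive differences among 15 genes, and a median of -0.08. The sign of that median depended on the arrays, with 0.15 between the full-digit arrays, -0.32 between the others, 0.17 without J 1c, 0.16 without NJ 1d and -0.42 without NJ 1a. After normalisation both J arrays were below both NJ arrays for 1 gene (6.67%, against 13.2% of all tested genes). They were above both for 2 (13.3%, against 13.4%). The isoform pairs showed no common pattern. Among the heart-and-muscle isoforms, Cox6a2 had 58372 on J 1a and 8842 on J 1c, against 61732 on NJ 1a and 34399 on NJ 1d, and -0.90 ± 0.71. J 1c was the low array, the 2 full-digit arrays differed by -0.13, and the fits with an array left out ranged from -1.95 to 0.31.

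Cox7a1, the muscle isoform of subunit 7a, had 11471 and 6298 on the J arrays, against 6516 and 18690 on the NJ arrays, and -0.32 ± 0.51. Its isoform of other tissues, Cox7a2, had 13516 and 11368 on the J arrays, against 10925 and 19955 on the NJ arrays, and -0.09 ± 0.39. For both genes NJ 1d was the highest array and the groups overlapped, and the number formats gave opposite signs (0.79 and -1.43 for Cox7a1, 0.28 and -0.46 for Cox7a2).

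Cox6a1, the isoform of other tissues opposite Cox6a2, had 4701 and 4041 on the J arrays, against 4819 and 3894 on the NJ arrays, and 0.04 ± 0.37, or -0.05 after median centring. Cox8b, the muscle isoform of subunit 8, had 4046 and 6115 on the J arrays, against 2763 and 8401 on the NJ arrays, and 0.15 ± 0.48, or -0.02 after median centring. In both genes the groups overlapped. Cox8a, the isoform of other tissues and the member with the lowest mean, had 398 and 106 on the J arrays, against 94.5 and 62.2 on the NJ arrays. The Cox8a groups did not overlap, with 1.10 ± 0.80, but J 1a alone was far above the other 3. Between the arrays rounded to 1 decimal the difference was 0.43, against 1.76 between the full-digit arrays. Without J 1a the gene was too dim to be tested, and the other fits with an array left out gave 1.08 to 1.76.

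Cox4i1, the common isoform of the subunit 4 pair, had 1995 and 2248 on the J arrays, against 1825 and 3415 on the NJ arrays, and -0.24 ± 0.42. A dimmer Cox4i1 probe set with a plain name had 781 and 827 on the J arrays, against 492 and 451 on the NJ arrays, with no overlap and 0.68 ± 0.58. The brighter one is of the kind that may match related transcripts. Cox4i2 was not analysed here.

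Cox7a2l had 2902 and 2612 on the J arrays, against 4156 and 4708 on the NJ arrays. The J arrays were the lower pair and did not overlap the NJ arrays, with -0.66 ± 0.36, with -0.50 and -0.81 within the number formats and with -0.81 to -0.51 when an array was left out. In limma with Benjamini-Hochberg adjustment its unadjusted p of 0.10 gave an adjusted p of 0.9998. Cox6b1, a subunit facing the intermembrane space, had 1706 and 1192 on the J arrays, against 1132 and 923 on the NJ arrays, and 0.43 ± 0.46, with no overlap.

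Complex V had 7 negative and 7 positive differences among 14 genes and a median of -0.02, against -0.01 for all tested genes. The median was 0.08 without J 1c. After normalisation the groups did not overlap for 4 genes, 2 in each direction (14.3% each, against 13.2% of all tested genes below and 13.4% above). They were lower in J for Atp5mpl and for Atp5j (-0.14 ± 0.37), the coupling factor of the stalk, and higher in J for Atp5g1 and for Atp5j2 (0.44 ± 0.71), a small membrane subunit. Atp5mpl, a small proteolipid of the membrane part, had 16729 and 9853 on the J arrays, against 18683 and 28272 on the NJ arrays, and -0.67 ± 0.41. Atp5md, a membrane subunit that helps ATP synthase to pair, had 60938 and 13028 on the J arrays, against 43675 and 49883 on the NJ arrays, and -0.62 ± 0.57. Atp5mpl was lower in both J arrays, while in Atp5md J 1a was the highest array and J 1c the lowest.

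Atp5c1, the gamma subunit of the rotor, had 37496 and 29691 on the J arrays, against 43546 and 43673 on the NJ arrays. Both J arrays were lower as deposited (-0.39), but quantile normalisation gave 0.37 ± 0.53, loess -0.04 and median centring -0.45, so no direction can be stated. Atp5a1, the alpha subunit, likewise had 0.19 ± 0.47 after quantile normalisation, -0.53 on the deposited scale, -0.59 after median centring and -0.15 after loess. A dimmer Atp5c1 probe set had 11672 and 14139 on the J arrays, against 12866 and 17863 on the NJ arrays, and -0.01 ± 0.39.

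The proteolipid of the c ring is encoded by several genes with the same mature protein. Atp5g1 had 751 and 742 on the J arrays, against 680 and 485 on the NJ arrays, and 0.30 ± 0.57 with no overlap. Its other probe set had 274 and 713 on the J arrays, against 604 and 600.5 on the NJ arrays, and -0.52 ± 0.72. Atp5g2 had 4385 and 6368 on the J arrays, against 5137 and 6992 on the NJ arrays, and -0.11 ± 0.36. Its groups overlapped, while a dimmer Atp5g2 probe set had 371 and 156 on the J arrays, against 103 and 137 on the NJ arrays, with no overlap and 0.82 ± 0.80. Both c-ring genes thus had probe sets of opposite sign. Atp5g3 was not analysed here.

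Probe sets of a gene did not always give the same sign. Of the 16 genes with at least 2 tested probe sets, 10 had probe sets of opposite sign. The share over all genes of the array is not given here. Some of the 10 had a difference near 0, such as Ndufv2 (0.01 and -0.25) and Atp5c1 (0.37 and -0.01). The largest contrast was in Atp5d, the delta subunit, with 5 tested probe sets. The brightest had 4651 and 2728 on the J arrays, against 4286 and 4068 on the NJ arrays, and -0.21 ± 0.42, and 3 others had -0.42, -0.28 and -0.11. The dimmest had 448 and 387 on the J arrays, against 107 and 98 on the NJ arrays, with no overlap and 1.67 ± 0.76. For Atp5d the direction thus rested on the probe set chosen.

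Of the other genes with several tested probe sets, Ndufb2, a complex I accessory subunit, had 44063 and 28156 on the J arrays, against 45532 and 47615 on the NJ arrays. Its brightest probe set was lower in both J arrays as deposited (-0.40) but gave 0.31 ± 0.49 after quantile normalisation and -0.05 after loess. A dimmer one had 14245 and 13187 on the J arrays, against 11850 and 14458 on the NJ arrays, and 0.27 ± 0.37. Cox6c, a complex IV subunit, behaved alike at its brightest probe set, with 82422 and 32472 on the J arrays, against 67769 and 71730 on the NJ arrays, and 0.28 ± 0.53 after quantile normalisation, against -0.43 on the deposited scale. Its other probe sets had 99.7 and 532 on the J arrays, against 95.5 and 310.2 on the NJ arrays (0.29 ± 1.03), and 159 and 111 on the J arrays, against 250 and 193 on the NJ arrays (-0.67 ± 0.76). For Ndufb2 and Cox6c the sign of the brightest probe set thus depended on the scaling.

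Ndufa3 had 36080 and 20841 on the J arrays, against 27636 and 35152 on the NJ arrays, at its brightest probe set. At the other it had 2097 and 1671, against 2035 and 2599, and -0.30 ± 0.40, which is the opposite sign. Ndufv2 had 14210 and 11977 on the J arrays, against 15457 and 13873 on the NJ arrays, at its brightest probe set, and 2475 and 2234, against 2333 and 3446, at the other (-0.25 ± 0.39). The groups of both probe sets of Ndufv2 overlapped. Atp5l, the g subunit, had 12228 and 8229 on the J arrays, against 8065 and 11461 on the NJ arrays, and 0.16 ± 0.38, or -0.00 after median centring, while its other probe set had 654 and 718, against 401 and 1314 (-0.09 ± 0.69). The number formats gave Atp5l opposite signs at both probe sets.

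Probe sets had the same sign in 6 genes. Ndufb10 had 10818 and 7416 on the J arrays, against 11106 and 10958 on the NJ arrays (-0.17 ± 0.38), and 245 and 230, against 404 and 183, at the dimmer probe set (-0.27 ± 0.77). Ndufb6 had 5208 and 3695 on the J arrays, against 4402 and 5806 on the NJ arrays (-0.13 ± 0.38), and 160 and 111, against 171 and 182, at the dimmer probe set (-0.39 ± 0.76). The dimmer probe set of Ndufb6 was lower in both J arrays and the brighter one overlapped. Cox8b had 4456 and 5166 on the J arrays, against 3663 and 5870 on the NJ arrays, at its dimmer probe set (0.12 ± 0.36, or -0.01 after median centring). Cox6b2, the testis isoform of subunit 6b, had 751 and 88.4 on the J arrays, against 669 and 60.7 on the NJ arrays (0.19 ± 1.13), and 240.2 and 149, against 97.6 and 252, at the dimmer probe set (0.16 ± 0.84). At the brighter Cox6b2 probe set the arrays paired by number format, with both 1a arrays high. The remaining genes of this kind are Ndufaf1, described above, and Ndufb2 at its tested probe sets.

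The comparison within brightness classes asks whether the members differ from other probe sets of like signal. Among the 35 genes above the 98th percentile, 25 were negative with a median of -0.14, against 48.3% negative and a median of 0.01 among the 211 other probe sets of the class. Both J arrays were below both NJ arrays for 7 of the 35 (20.0%), against 9.48% of the others. In the class from 95 to 98, 10 of 15 members were negative with a median of -0.14, against 51.8% and -0.02 for 357 others, and both J arrays were below for 1 (6.67%), against 11.8%. In the class from 90 to 95, 7 of 8 were negative with a median of -0.22, against 52.4% and -0.02 for 609 others, and both J arrays were below for 3, against 12.2%.

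In dimmer classes the members had no common sign. From the 75th to the 90th percentile 3 of 4 members were negative (median -0.22), against 49.9% of 1858 others. From the 50th to the 75th 3 of 6 were negative (median 0.12), against 51.9% of 3096 others, and from the 25th to the 50th 2 of 5 (median 0.19), against 49.5% of 3092 others. Relative to the median of the others in its class, the median member stood at -0.11 in all, at -0.40 in complex II, -0.26 in complex III, -0.14 in complex I, -0.07 in complex IV and -3.2e-05 in complex V. Above the 98th percentile all 6 complex III genes were negative (median -0.36), as were 2 of 2 in complex II (-0.47), 10 of 15 in complex I (-0.08), 4 of 5 in complex IV (-0.09) and 3 of 7 in complex V (0.11).

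**Figure D4:**
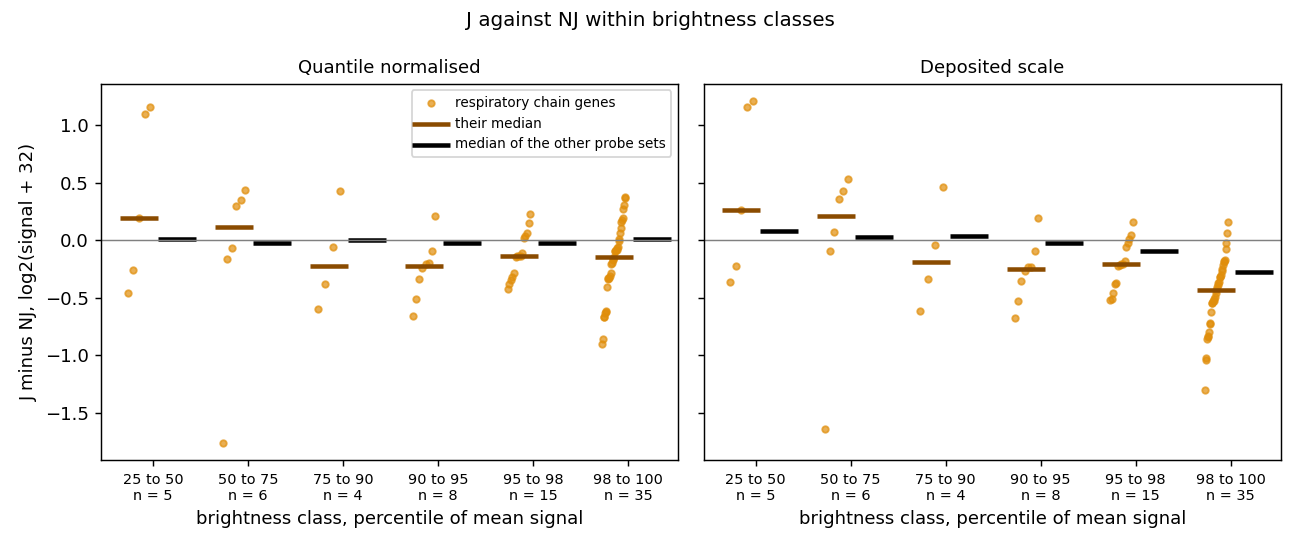
J minus NJ in log2(signal + 32) of each respiratory chain gene (orange points) by brightness class (percentile of mean signal), with the median of the members (brown bar) and of the other probe sets of the class (black bar), after quantile normalisation (left) and on the deposited scale (right). The member median lies below the other median in the 4 brightest classes on both scales, and in the brightest class of the deposited scale the other probe sets are also below 0 (-0.28).

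The bright end is also where J 1c departed from the other arrays. On the deposited scale the 35 brightest members had a median of -0.43 and the 211 others of that class -0.28. Between the full-digit arrays these medians were -0.05 and 0.02, and between the arrays rounded to 1 decimal -0.76 and -0.43. J 1c itself lay at -0.61 relative to the mean of the other 3 arrays for these members, and at -0.32 for the others. After quantile normalisation the J arrays of a bright member still lay 0.50 apart in the median and the NJ arrays 0.36, against a median size of difference of 0.20. What part of the bright members' differences follows J 1c as an array was not tested beyond leaving it out.

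**Figure D5:**
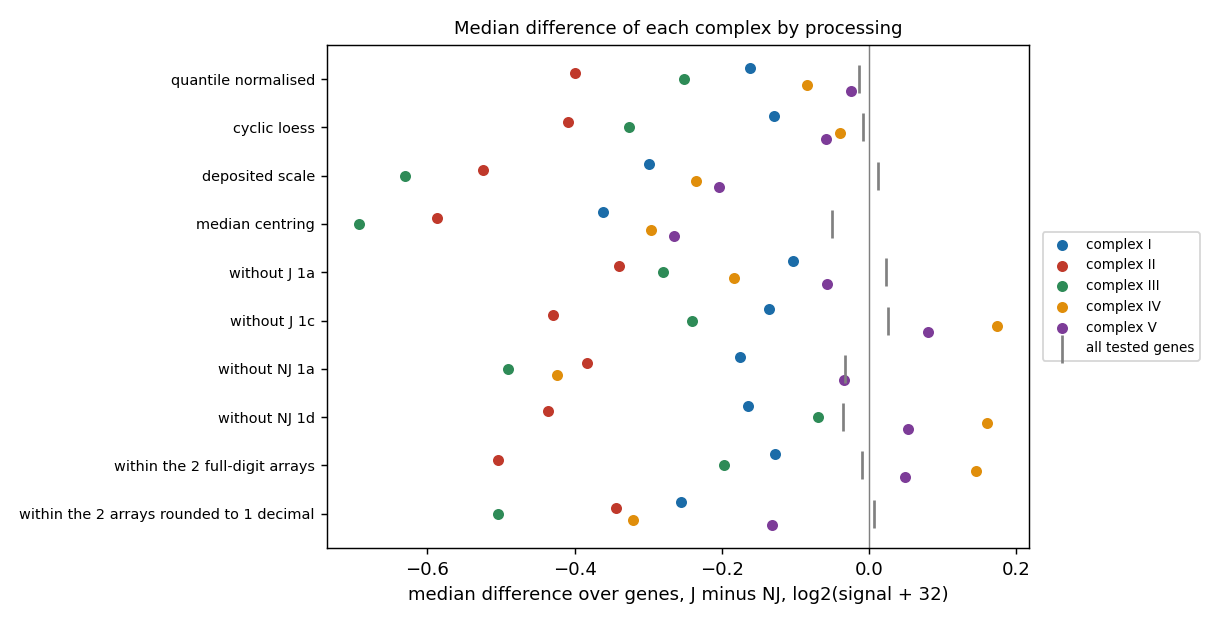
Median J minus NJ over the genes of each complex, in log2(signal + 32), under each scaling, with each array left out and within each number format, with the median of all tested genes as a grey bar. Complexes I, II and III lie below 0 in all 10 settings, complex II between -0.59 and -0.34, whereas complexes IV and V lie on both sides of 0.

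Beyond the subunits, 67 genes of 6 pathway lists passed the dim filter, of 99 listed, and 0 were called in limma with Benjamini-Hochberg adjustment, as were 0% of all probe sets. Of these 47 were negative and 20 positive, with a median of -0.17, and both J arrays were below both NJ arrays for 19 and above for 4, against 13.2% and 13.4% of all tested genes. Fatty acid oxidation and electron transfer flavoprotein, which feeds electrons to ubiquinone, had 11 of 13 genes negative and a median of -0.50, with -0.31 and -0.54 within the number formats and -0.18 without NJ 1d. Acadl, the long-chain acyl-CoA dehydrogenase, had 1367 and 2161 on the J arrays, against 3784 and 2736 on the NJ arrays, and -0.93 ± 0.42. Hadhb, the thiolase of the trifunctional protein, had 6979 and 5368 on the J arrays, against 10697 and 9545 on the NJ arrays, and -0.58 ± 0.38. In both genes the J arrays were the lower pair with no overlap, as in 6 of the 13 genes of that list, against 13.2% of all tested genes.

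The tricarboxylic acid cycle, to which complex II belongs, had 9 of 12 genes negative and a median of -0.17, which was -0.06 without NJ 1a, -0.06 without NJ 1d and -0.28 without J 1a. Fh1, fumarase, had 5397 and 7289 on the J arrays, against 10958 and 9819 on the NJ arrays, and -0.58 ± 0.36. Idh2, the mitochondrial NADP-dependent isocitrate dehydrogenase, had 1776 and 1105 on the J arrays, against 2568 and 1816 on the NJ arrays, and -0.63 ± 0.45. The Fh1 and Idh2 groups did not overlap. The pyruvate dehydrogenase list had 6 of 6 tested genes negative and a median of -0.21. Its tested genes were the subunit genes Pdha1, Pdhb and Dlat, the kinase genes Pdk1 and Pdk4, and the pyruvate carrier gene Mpc1. The median was -0.07 without J 1a, -0.39 without J 1c and -0.47 without NJ 1a. Pdha1, the E1 alpha subunit, had -0.50 ± 0.40, and Dlat, the E2 subunit, had -0.40 ± 0.40.

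Carriers and energy shuttles had 7 negative and 6 positive differences and a median of -0.05 (0.12 without J 1c, and -0.18 to -0.15 without each of the others), with -0.60 ± 0.38 for Slc25a20, the carnitine-acylcarnitine carrier, and -0.32 ± 0.37 for Vdac3, a channel of the outer membrane. Assembly, iron-sulphur and haem factors had 8 negative and 4 positive and a median of -0.03 (0.045 without J 1a, and -0.18 to -0.15 without each of the others), with 0.67 ± 0.44 for Surf1, an assembly factor of complex IV, and -0.60 ± 0.43 for Lrpprc, which stabilises mitochondrial mRNAs. Regulators had 6 negative and 5 positive and a median of -0.12 (0.45 without J 1a, 0.037 without NJ 1d and -0.21 without NJ 1a), with -0.56 ± 0.41 for Yy1 and 0.59 ± 0.47 for Sp1, whose letters were searched in the promoters above. Between the full-digit arrays Sp1 had -0.09, and between the others 1.27, while Yy1 had -0.81 and -0.30. These lists were chosen with earlier results of these arrays known, and their differences were within the same 4 arrays.

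Markers of fibre types and of other cells moved with the arrays as well. The 12 fast-fibre markers had a summed signal of 248145 to 1333730 on the J arrays, against 813682 to 1110020 on the NJ arrays, with J 1c the lowest, and 8 of 12 were negative (median -0.10). The 6 tested of 8 slow-fibre markers, whose fibres are rich in mitochondria, had 3 negative and 3 positive (median -0.19), and all 8 summed to 13588 to 47387 on the J arrays, against 31747 to 40799 on the NJ arrays. Ucp1, the defining gene of brown fat, had 76.5 and 153 on the J arrays, against 331 and 114 on the NJ arrays, and Elovl3 was too dim to test. Of the tested markers, brown fat had 2 of 3 negative, adipocytes 2 of 3, heart 2 of 3, fibroblasts 2 of 6, endothelium 2 of 4, blood 0 of 2, myeloid cells and lymphocytes 2 of 4, nerve and Schwann cells 4 of 5 and smooth muscle 0 of 4. Summed marker signals are given as the range on the J arrays, against that on the NJ arrays. They were 42524 to 108258, against 51161 to 59848, for fibroblasts, and 4154 to 5651, against 1922 to 5725, for smooth muscle. For nerve and Schwann cells they were 2324 to 3352, against 2502 to 3361. For heart, where Myh6 was too dim to test, they were 10638 to 12415, against 15691 to 20632. Actc1 made up most of the heart sum, with 10731 and 9355 on the J arrays, against 19041 and 14534 on the NJ arrays. The Actc1 probe set may match related transcripts, and Nppa (0.43 ± 0.50) and Nppb (-0.96 ± 0.86) differed in sign. Dcn made up most of the fibroblast sum and Mb most of the slow-fibre sum. After normalisation both J arrays were above both NJ arrays for 3 of the 6 fibroblast markers, against 13.4% of all tested genes. As deposited the groups overlapped for Dcn and Col1a1. Of the markers, Actc1, Nppa, Nppb, Dcn, Mb, Col1a1, Postn, Adipoq and those set beside them below are named after their values were seen. Postn, periostin of the extracellular matrix, had 1311 and 700 on the J arrays, against 43.3 and 75.2 on the NJ arrays, and 3.43 ± 0.81. Adipoq, the adipocyte hormone adiponectin, had 1295 and 1132 on the J arrays, against 335 and 246 on the NJ arrays, and 1.90 ± 0.59. Both were far higher in both J arrays, with an adjusted p of 0.9998 each in limma with Benjamini-Hochberg adjustment. The other tested adipocyte markers, Fabp4 and Lep, had differences of -0.42 and -0.06. Among the other fibroblast markers, Col1a1, Dcn and Col1a2 had 0.67, 0.63 and 0.23, and Col3a1 and Lum had -0.25 and -0.17. No marker was called in limma, and the part of cell makeup in the respiratory chain values was not tested.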

How the data were processed

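The deposited intensities are linear, with 1 value per probe set and array. How the authors computed them is not given in the sources used here. Means trimmed by 2% at each end were 800.5 to 800.6 on all arrays, which shows a common scaling. Names came from GEO's platform annotation, in which 10833 had 1 symbol, 396 several and 1193 none. Of these symbols 10817 matched RefSeq (GRCm38.p6) and 0 changed. Groups were read from the sample titles. The members and lists were chosen with earlier results of these data known.

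Intensities were taken as log2(value + 32), quantile normalised, and filtered to the 9316 of 12422 probe sets with a mean above the 25th percentile, leaving out 66 controls. J was compared with NJ by limma 3.58.1 in R 4.3.3 (moderated by eBayes with a trend on intensity, residual degrees of freedom 2) with Benjamini-Hochberg adjustment at 0.05. Adding 32 shrinks the folds of dim genes. The brightest tested probe set stood for each gene. An exact permutation test of 2 against 2 arrays cannot go below 0.333, so none is given. Alternatives were other scalings, pseudocounts (1 and 100), filters, probe set rules, a term for number format (which coincides with label 1a and cannot be told apart from it) and leaving out each array. Named genes are, per complex, the 3 with the smallest unadjusted p, isoform pairs, c-ring genes, Cyc1, Cycs, genes with several tested probe sets, the highest and lowest mean, and 2 genes per pathway list, and others were named as members or markers. Promoter motifs were searched with Python 3.11.15. The number of arrays limits the precision.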

Additional observations from a re-analysis of the deposited data

How the results depend on the processing

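Member calls stayed at 0 in all settings run. Over all probe sets the number-format term gave 8 calls and leaving out an array 0 to 4, the 4 arising without J 1a. Median differences (-0.14 for members, -0.16, -0.40, -0.25, -0.08 and -0.02 for complexes I to V, -0.17 for pathway lists) were, in this order, -0.30, -0.30, -0.52, -0.63, -0.23, -0.20 and -0.29 on the deposited scale and -0.36, -0.36, -0.59, -0.69, -0.30, -0.27 and -0.35 after median centring. Between the full-digit arrays they were -0.034, -0.13, -0.50, -0.20, 0.15, 0.048 and -0.14, and between the arrays rounded to 1 decimal -0.32, -0.25, -0.34, -0.50, -0.32, -0.13 and -0.25. Loess moved complex I to -0.13. Averaging a gene's tested probe sets gave -0.20 for complex I and 0.027 for complex V, and counting each of them -0.20 and -0.078. Leaving out each array gave -0.25 to -0.049 for members, -0.18 to -0.10, -0.44 to -0.34, -0.49 to -0.07, -0.42 to 0.17 and -0.057 to 0.080 for complexes I to V, and -0.23 to -0.13 for pathway lists. The median excess over the brightness class (-0.11) was -0.025 between the full-digit arrays, -0.32 between the others, and -0.23 to -0.00654 with an array left out. Plain probe sets only, chosen after seeing the data, gave -0.29 for complex II, 0.018 for complex V and -0.20 for pathway lists. Leaving out Ndufaf1, Ndufaf4 and Cox7a2l, also chosen after seeing the data, left 47 of 70 genes negative. Of single genes 11 of 73 turned sign on the deposited scale, 14 under median centring and 7 under loess, and 27 of 73 kept their sign in the fits with an array left out (Cox8a was not tested without J 1a). The cause was not tested. No paired analysis was possible because the replicate labels of the groups share only 1a. The number-format term sets J 1a with NJ 1a and J 1c with NJ 1d, so it is a block over the same arrays by number format, which the labels do not give as a pairing.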
